A study of Mus musculus with 22 samples.

Results

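The enzymes described here attach glutathione, glucuronic acid or sulfate to reactive metabolites, hormones, bilirubin and foreign compounds. They were measured in whole mouse pancreas with TempO-Seq, in which pairs of detector oligos are ligated on an RNA and counted by sequencing. Members were the probes whose gene symbol named a glutathione S-transferase (Gst a, k, m, o, p, t or z), a microsomal glutathione S-transferase (Mgst), a UDP-glucuronosyltransferase (Ugt) or a sulfotransferase (Sult). This gave 101 of the 30146 probes, for 66 of the 21450 symbols: 33 Gst probes, 3 Mgst probes, 34 Ugt probes and 31 Sult probes.

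The 22 libraries came from C57Bl/6 mice. Females had received corn oil (Control) or 20 ng/kg per day TCDD, the dioxin that activates the aryl hydrocarbon receptor, by subcutaneous injection 2 times a week from before mating until birth. Pancreas was taken on the day of birth from the dams and from 1 male and 1 female pup of each litter, and pups were exposed only through the dam. The labels give 6 groups: Control and TCDD dams (4 libraries each), Control and TCDD female pups (3 and 4) and Control and TCDD male pups (3 and 4). By these labels no pup library shares a litter with Control dam 5.

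Stage labels and stage genes disagreed in 8 libraries, so the libraries were put into classes by expression. The classes were chosen by the counts of Afp and Pnlip, and the enzymes by symbol with earlier results of these data known. A library was called newborn type where its summed count for Afp, a fetal liver and yolk sac protein, was above that for Pnlip, the lipase of mature acinar cells, and adult type otherwise. The nearest libraries on each side of this rule had Afp to Pnlip count ratios of 8.295 and 2.78e-05. The 14 newborn-type libraries (8 Control-labelled, 6 TCDD-labelled) were all 6 Control pups, Control dams 2 and 4, TCDD dams 6 and 10, TCDD female pups 8, 10 and 11 and TCDD male pup 6. The 8 adult-type libraries were 2 of Control origin by label (dams 5 and 7) and 6 labelled TCDD: female pup 6, male pups 8, 10 and 11 and dams 8 and 11. Y-linked transcripts were present in 7 newborn-type libraries and in 0 adult-type libraries, although 3 of the latter are labelled male. Of those 7, 2 are labelled male and 5 female. Whether the treatment labels are right was not tested. Totals were 11223816 to 34911410 counts in the newborn type and 14068304 to 19148777 in the adult type, and Control dam 4 stood apart as the deepest library. Since the classes were read from these same libraries, differences between them are given as descriptions, with no test.

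Glutathione S-transferases of the alpha, mu, pi, theta, kappa, omega and zeta classes couple glutathione to electrophiles, and microsomal enzymes such as Mgst1 do so at membranes. UDP-glucuronosyltransferases of the Ugt1 and Ugt2 families use UDP-glucuronate in the endoplasmic reticulum, and cytosolic sulfotransferases use the donor PAPS. Many of these enzymes are best known from the liver. The transcription factor NRF2 acts through antioxidant response elements on many of their genes, the aryl hydrocarbon receptor through a short core motif, and HNF1 on liver-type genes.

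The promoters of 3 members that differ between the classes are shown because each holds 1 of these motifs. Other members that differ had no match to any of the 3 motifs, or no promoter entry. They include Gstk1, Gstm2, Gstp2, Gstt3, Gsta4, Sult1c2, Sult2a1, Ugt2b35 and Ugt2a3. The shown promoters were thus picked for their motifs, and a link of motif and class was not tested. Each line gives the 250 bases before the RefSeq transcription start (GRCm38.p6), 5′ to 3′ on the gene's strand, with the match in capitals. Gstp1 lies at chr19:4037913-4038162 on the minus strand with the receptor core GCGTG. Mgst1 lies at chr6:138140277-138140526 on the plus strand with the antioxidant element TGACNNNGC read on the opposite strand. Ugt1a1 lies at chr1:88211709-88211958 on the plus strand with the HNF1 motif GTTAATNAT, also on the opposite strand.
Gstp1: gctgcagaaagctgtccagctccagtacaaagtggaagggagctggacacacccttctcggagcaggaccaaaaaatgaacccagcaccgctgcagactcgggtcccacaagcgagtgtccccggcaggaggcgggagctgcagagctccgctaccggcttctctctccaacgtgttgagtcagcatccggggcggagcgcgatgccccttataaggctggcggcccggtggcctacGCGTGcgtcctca
Mgst1: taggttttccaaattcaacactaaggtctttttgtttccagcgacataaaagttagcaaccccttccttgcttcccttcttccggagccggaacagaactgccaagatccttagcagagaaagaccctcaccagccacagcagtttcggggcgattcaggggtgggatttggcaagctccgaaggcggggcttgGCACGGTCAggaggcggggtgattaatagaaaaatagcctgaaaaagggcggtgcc
Ugt1a1: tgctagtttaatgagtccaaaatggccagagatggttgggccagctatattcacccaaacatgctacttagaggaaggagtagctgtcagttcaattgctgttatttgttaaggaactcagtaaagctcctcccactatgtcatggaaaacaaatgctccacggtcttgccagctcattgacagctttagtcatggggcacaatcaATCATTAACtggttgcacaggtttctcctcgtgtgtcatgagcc
The matches begin 13, 56 and 44 bases before the start. Promoters were found for 58 of the 66 symbols (70 entries), and 300-base windows with 250 bases before and 50 after the start were searched on both strands. GCGTG was in 20.0% of the member windows and 32.4% of all 32851 windows. TGACNNNGC, whose end can overlap the start of GCGTG, was in 5.71% of member windows (Gsta3, Gstm5, Gstm7 and Mgst1) and 12.4% of all. GTTAATNAT was in 11.4% of member windows, those of Ugt1a1, Ugt1a9, Ugt1a10, Sult1d1 and Sult2a3 to Sult2a6, and 0.801% of all. Genes of the Ugt1a and Sult2a clusters are close relatives, so their windows are not independent, and a match is not a measured binding site.

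Levels are CPM (counts scaled to a common library size) with TMM factors, which set each library's scale from the bulk of its probes. Probes differ in efficiency, so levels are compared between libraries and not between genes. The scale matters here: on TMM-scaled CPM the median probe had a newborn over adult log2 ratio of 0.11, and on CPM of the library total it had 1.93. Acinar markers moved with this: their sum, which holds Pnlip, was 270040 to 427280 TMM-scaled CPM in adult-type libraries and 40980 to 78666 in newborn-type libraries. Without Pnlip it was 228450 to 361910 and 40971 to 78655. On library totals the sum with Pnlip was 144400 to 165120 and 71726 to 93772. The median log2 ratio of the acinar markers was -2.19 on TMM-scaled CPM and -0.33 on library totals, where Ctrb1, Ptf1a and Rbpjl turned above 0. The part of the acinar markers in the member ratios was not tested. Ratios are therefore read relative to the median probe, with the value from library totals beside them.

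Of the members, 39 probes reached a mean of 1 TMM-scaled CPM in a class: 22 Gst, 2 Mgst, 11 Ugt and 4 Sult probes. Every newborn-type library was above every adult-type library for 7 of the 39, against 14% of all 14700 such probes, and the reverse held for 9, against 8.62%. The members' shares were 17.9% and 23.1%, and their median log2 ratio was 0.25. On library totals 30 of 43 members were newborn higher and 0 adult higher, beside 71.8% and 0.443% of all 15592 probes. All ratios are log2 of the class medians with 0.1 CPM added.

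The pi, kappa, theta and part of the mu class of glutathione S-transferases made up 7 of the 9 probes that were higher in adult-type libraries. Gstp1, the pi-class enzyme, had 115 to 212 TMM-scaled CPM (median 146) in newborn-type libraries with its probe Gstp1_30795. Its adult-type Control libraries had 355 and 491, and the 6 TCDD-labelled ones 400 to 640 (median 470). The classes did not overlap, with a log2 ratio of -1.69 on this scale and 0.23 on library totals, where the sign flips and the ratio stays below that of the median probe. A further Gstp1 probe, Gstp1_64006, gave -1.79 (0.16 on library totals), and Gstp2 gave -1.58 (0.25). Gstp1 and Gstp2 share sequence: 33.7% of the 50-base windows of annotated Gstp1 transcripts also occur in Gstp2, so their probes may not be separable.

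Gstm2, a mu-class enzyme, had 28.0 to 47.9 TMM-scaled CPM (median 37.5) in the newborn type. Adult-type Control libraries had 85.7 and 108, and TCDD-labelled ones 100 to 122 (median 119). Its log2 ratio was -1.59, and 0.29 on library totals. Other mu-class probes overlapped between the classes: Gstm1 had a log2 ratio of 0.59, Gstm3 0.13, Gstm5 0.20, Gstm4 -0.28 and Gstm7 -0.11. On library totals these were 2.45, 2.03, 1.88, 1.51 and 1.55, so the last 2 change sign there. Within the mu class the balance of Gstm2 and Gstm1, a pair chosen after the values were seen, differed without any scaling. The count ratio of Gstm2 to Gstm1 in a library was 0.877 to 2.21 (median 1.40) in the newborn type and 3.12 to 28.7 (median 5.93) in the adult type.

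Gstk1, the kappa-class enzyme of mitochondria and peroxisomes, had 8.49 to 13.8 TMM-scaled CPM (median 10.2) in the newborn type. The adult-type Control libraries had 28.2 and 39.4 and the TCDD-labelled ones 36.8 to 40.4 (median 38.7), for a log2 ratio of -1.91 and of 0.072 on library totals. Gstt3, a theta-class enzyme, had 3.74 to 5.92 (median 4.46) against 12.6 in both Control libraries and 13.3 to 19.7 (median 16.1) in TCDD-labelled adult-type libraries. Its log2 ratio was -1.79, and 0.17 on library totals, with -1.71 and 0.01 for the probe Gstt3_31186. The other theta genes overlapped: Gstt2 gave 0.15 and -0.16 with its 2 probes (1.99 and 1.69 on library totals) and Gstt1 gave 0.12 and -1.08 (1.61 and 0.72). Each of the values below 0 here changes sign on library totals.

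Gsta3, Gstz1 and Gsto1, of the alpha, zeta and omega classes, differed less. Gsta3 had 33.1 to 57.0 TMM-scaled CPM (median 38.3) in the newborn type and 15.6 to 40.8 (median 24.2) in the adult type with Gsta3_69531. The classes overlapped at a log2 ratio of 0.66, with 0.69 for Gsta3_30777 (2.69 and 2.46 on library totals). Gsta4, which acts on the lipid peroxidation product 4-hydroxynonenal, was the alpha gene whose newborn-type libraries were all higher, at 2.74 to 4.39 against 0.0995 to 1.49, with a log2 ratio of 1.80. Gstz1, an enzyme of tyrosine breakdown, had 0.25 with Gstz1_30817 and -0.20 with Gstz1_76472 (2.18 and 1.62 on library totals). Gsto1 had -0.34 (1.57 on library totals). The Gsta3, Gstz1 and Gsto1 probes overlapped on TMM-scaled CPM, and the values below 0 change sign on library totals.

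Mgst1 went the other way from the pi, kappa and theta genes. Its newborn-type libraries had 34.1 to 55.7 TMM-scaled CPM (median 40.1). Adult-type Control libraries had 10.5 and 15.3, and TCDD-labelled ones 9.26 to 27.5 (median 9.68). The log2 ratio was 1.97, and 3.46 on library totals. The count ratio of Gstp1 to Mgst1, which needs no scaling, was 2.87 to 5.10 (median 3.75) in newborn-type and 17.3 to 65.4 (median 38.7) in adult-type libraries. That of Gstk1 to Mgst1 was 0.205 to 0.315 and 1.45 to 4.08. These gene pairs were chosen after the values were seen.

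**Figure D1:**
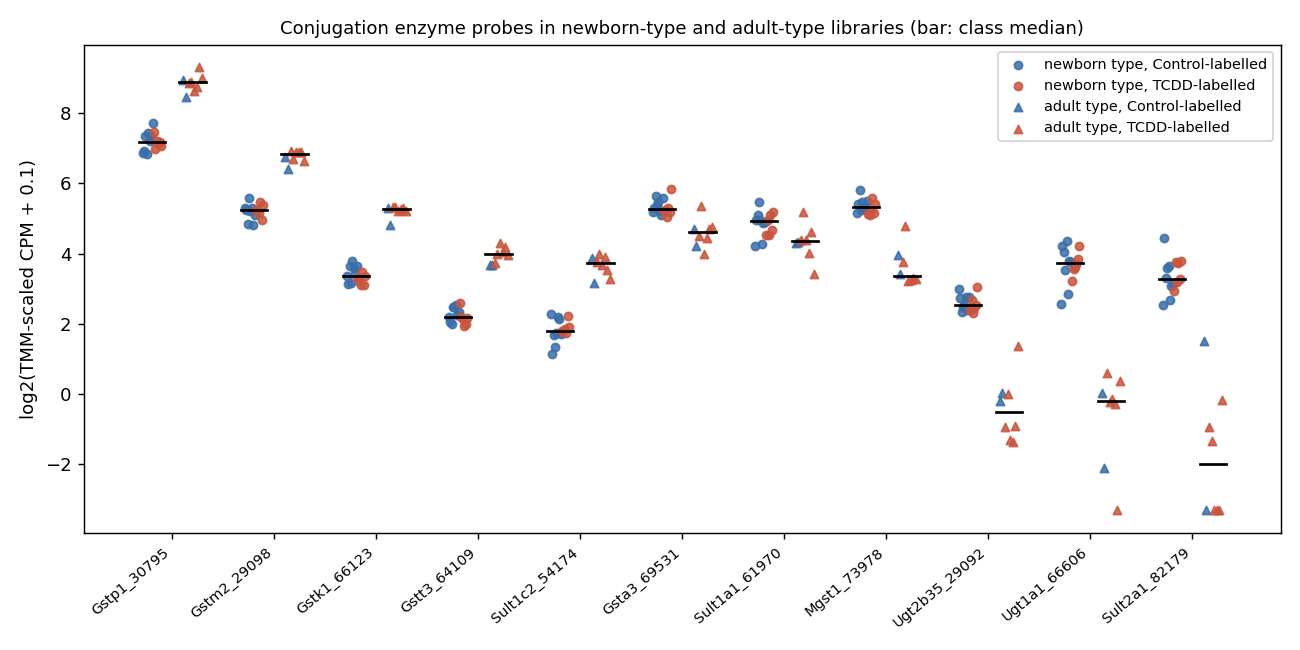
Level of 11 member probes in each library, as log2(TMM-scaled CPM + 0.1), by class and treatment label; bars are class medians. Gstp1, Gstm2, Gstk1, Gstt3 and Sult1c2 sit higher in the adult type on this scale (on library totals only Sult1c2 keeps a negative ratio, -0.14), Gsta3 and Sult1a1 overlap, and Mgst1, Ugt2b35, Ugt1a1 and Sult2a1 sit higher in the newborn type on both scales.

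Several glucuronidation and sulfonation genes known from the liver, led by Ugt1a1, Ugt2b35 and Sult2a1, were much higher in newborn-type libraries on both scales. Ugt1a1, the bilirubin glucuronosyltransferase, had 5.79 to 20.5 TMM-scaled CPM (median 13.2) in the newborn type. Adult-type Control libraries had 0.132 and 0.919 and TCDD-labelled ones 0 to 1.41 (median 0.77), with 0 to 10 counts per library, where 3 counts are 0.299 to 0.459. Summed over libraries there were 4900 counts against 44, a ratio of 18.4 on TMM-scaled counts (95% counting interval 13.7 to 25.3). The log2 ratio of medians was 3.93, and 5.56 on library totals. Probes of the Ugt1a cluster are hard to separate, since its transcripts share their last exons and 58.2% of the Ugt1a1 windows recur in Ugt1a2. Ugt1a7c was newborn higher with 1 of its probes (log2 ratio 1.11) and overlapped with the others, and Ugt1a6a overlapped at 1.18 and 0.54.

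In the Ugt2 family, Ugt2b35 had 4.82 to 8.24 TMM-scaled CPM (median 5.71) in the newborn type. Adult-type Control libraries had 0.766 and 0.921, and TCDD-labelled ones 0.29 to 2.49 (median 0.428), giving a log2 ratio of 3.05 (4.68 on library totals). Ugt2b34 differed less, at 5.29 to 9.37 against 2.98 to 5.93, with overlap and a log2 ratio of 0.87. Ugt2b5 had a high ratio, 4.01, but overlapped because 1 newborn-type library had 0.442. Ugt2a3, a member of the same family, was the Ugt probe higher in the adult type, at 0.995 to 3.11 against 0.263 to 0.845, with a log2 ratio of -1.81 and of -0.08 on library totals. Ugt8a, which makes galactosylceramide and not glucuronides, had 0.636 to 1.41 and 0 to 0.796 and overlapped.

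Sult2a1, a sulfotransferase, acts on steroids and bile acids. Its probe Sult2a1_82179 had 5.64 to 21.6 TMM-scaled CPM (median 9.65) in the newborn type, and at most 13.7 outside Control dam 4. Adult-type Control libraries had 0 and 2.76, and TCDD-labelled ones 0 to 0.786 (median 0.149). The summed counts were 4150 and 29, a ratio of 23.6 on TMM-scaled counts (95% counting interval 16.4 to 35.3), and 18 of the 29 were from Control dam 5. The log2 ratio of medians was 5.29 and rose to 6.66 to 6.67 without any 1 of Control dam 5, TCDD dams 8 and 11 and TCDD male pup 8, since the adult-type median is then 0. It fell, to 4.62 at the lowest, without any 1 of TCDD male pups 10 and 11, Control dam 7 and TCDD female pup 6, and on class means it was 4.10. A further Sult2a1 probe, Sult2a1_29344, had 0.343 to 3.02 against 0 to 0.393 and overlapped, with a log2 ratio of 3.95. On library totals its ratio was 4.62, without overlap. Of the Sult2a1 windows 33.2% recur in other genes, mostly Sult2a2. Sult1d1, whose class means are under 1, was also newborn higher without overlap, at 0.514 to 1.29 against 0 to 0.395 (348 and 5 counts, log2 ratio 3.47). Sult4a1_31700 (195 and 1 counts), Sult1b1_29295 (199 and 3) and Sult2a8_82014 (139 and 3) had most of their counts in the newborn type as well, with overlap at these low levels on TMM-scaled CPM. Sult1a1, the phenol sulfotransferase, had 18.4 to 44.3 against 10.5 to 36.5, an overlap at 0.57.

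Sult1c2 was the sulfotransferase higher in the adult type. Newborn-type libraries had 2.09 to 4.76 TMM-scaled CPM (median 3.36). Adult-type Control libraries had 8.82 and 14.6 and TCDD-labelled ones 9.57 to 15.6 (median 13.1), a log2 ratio of -1.92 and of -0.14 on library totals. The count ratio of Sult1c2 to Sult1a1 was 0.0547 to 0.258 in the newborn type and 0.429 to 0.927 in the adult type. This pair, too, was chosen after the values were seen. The top probes of Sult3a1, Sult4a1, Sult5a1, Sult6b2 and Ugt3a2 had at most 1.10 TMM-scaled CPM in any library. Of all members, 29 probes had 3 or more counts in every library, 11 had fewer than 3 in every library and 2 of those (probes for Sult2a1 and Sult2a2) had 0 throughout.

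**Figure D2:**
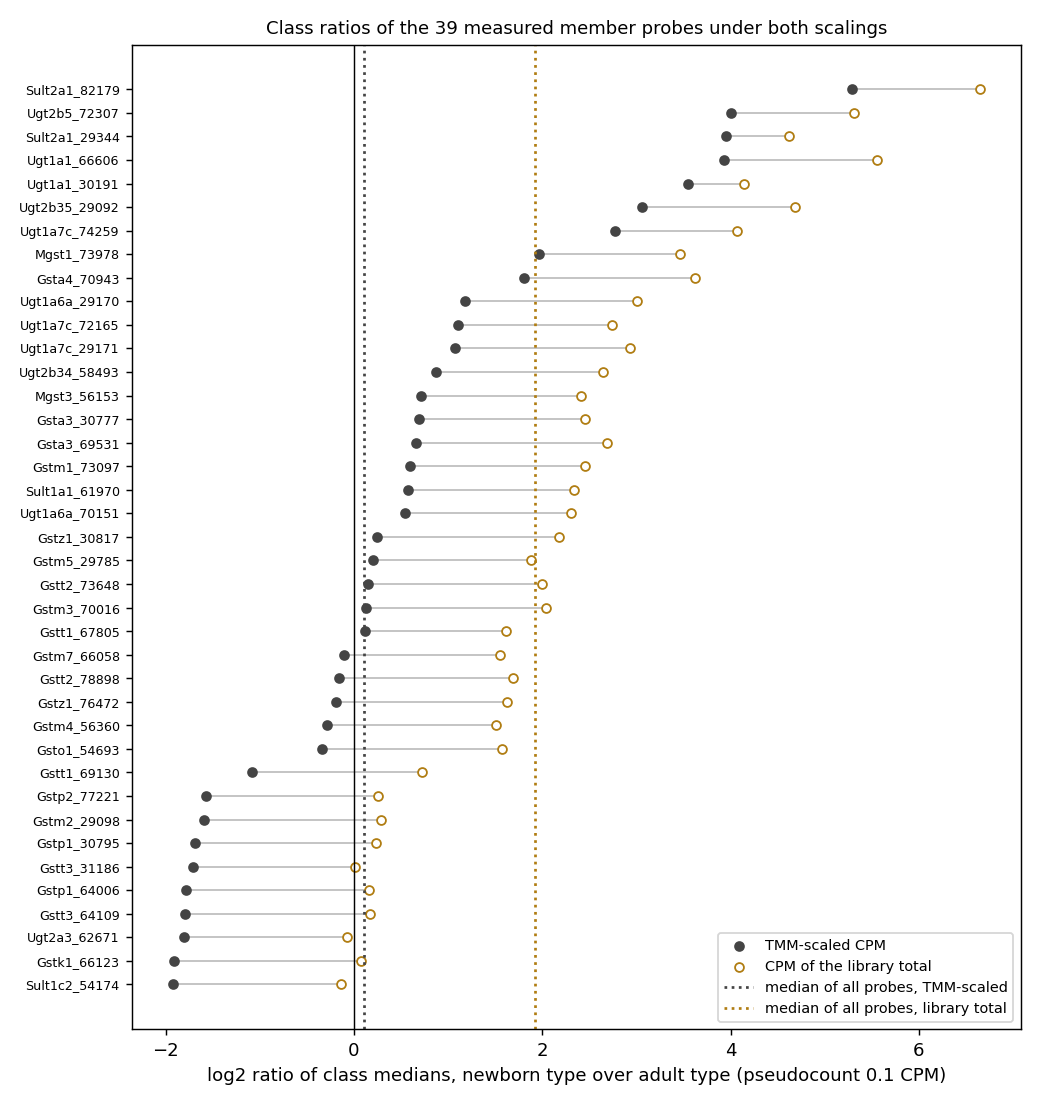
Newborn over adult log2 ratio of class medians for the 39 measured member probes on TMM-scaled CPM (filled) and on CPM of the library total (open); dotted lines mark the median of all probes, 0.11 and 1.93. Of the 15 probes below 0 on the first scale, Gstp1, Gstp2, Gstm2, Gstk1 and Gstt3 among them, only Sult1c2 (-0.14) and Ugt2a3 (-0.08) stay below 0 on the second.

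Markers of liver, mesenchyme and islets, like Ugt1a1 and Sult2a1, were mostly newborn higher without overlap, beside 14% of all probes. So were the 3 measured gut markers and part of the duct markers. Of 14 measured hepatocyte markers 11 were higher without overlap in the newborn type, with a median log2 ratio of 6.40, Afp, which set the classes, among them. Without Afp the sums below are 275 to 807 in the newborn type and 8.40 to 51.3 in the adult type. Their summed level was 425 to 1206 TMM-scaled CPM in Control-labelled and 534 to 1286 in TCDD-labelled newborn-type libraries. It was 31.5 and 52.7 in the adult-type Control libraries and 8.40 to 44.6 in the TCDD-labelled ones, where no hepatocyte marker was at 0 in all libraries. Of 9 enterocyte markers with a probe only Fabp2, Vil1 and Apoa4 reached a class mean of 1, and all 3 were newborn higher. The enterocyte sum was 22.5 to 454 in the newborn type and 0.863 to 3.81 in the adult type. Sis, Cdx1, Cdx2, Lct and Muc2 had a median of 0 in both classes. Cdx2 and Lct reached at most 0.088 and 0.094 in the newborn type, and 1.18 and 0.579 in the adult type. Control male pup 4 had the highest enterocyte sum. Without overlap 8 of 9 mesenchymal markers (median log2 ratio 2.82), 6 of 8 islet markers (2.02) and 3 of 6 duct markers (1.46) were newborn higher too. For endothelial markers it was 1 of 7 (0.83), near the 14% of all probes. The 9 leukocyte and 3 erythroid markers measured overlapped, at medians of 1.26 and 1.74, as did the 5 adipocyte markers, whose median was -4.16 (-3.02 on library totals). The part of these cell types in the member levels was not tested. Whole tissue was measured, so more cells of a kind and more RNA per cell cannot be told apart.

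Among the 14 newborn-type libraries the hepatocyte marker sum was set against 20 member probes. Ugt1a1 had a Pearson r of 0.93 and a Spearman rho of 0.93 (two-sided permutation test, n = 14, adjusted p = 0.0002 and 0.0004). The unadjusted Pearson p of 1e-05 is the smallest that 100000 resamples give. Without the 2 libraries farthest from the median sum, TCDD male pup 6 and Control dam 2, its r was 0.91. Within Control-labelled and TCDD-labelled libraries r was 0.97 and 0.92. Mgst1 had r 0.69 and rho 0.76 (permutation test, adjusted p = 0.0374 and 0.0258) and r 0.73 without those 2 libraries. Gsta3_69531 had r 0.69 and rho 0.67 (permutation test, adjusted p = 0.0374 and 0.0455), falling to r 0.54. Sult2a1 had r 0.53 and rho 0.67 (permutation test, adjusted p = 0.123 and 0.0455), and r 0.42 without them. Ugt2b35, although newborn higher like Ugt1a1, had r 0.05 and rho -0.04 (permutation test, adjusted p = 0.905 and 0.892). Gstp1 and Gstm2 had r of 0.22 and -0.18 (permutation test, adjusted p = 0.696 and 0.712). For these 3 genes r differed in sign between Control-labelled and TCDD-labelled libraries. It was -0.55 and 0.71 for Ugt2b35, 0.49 and -0.45 for Gstp1, and -0.51 and 0.45 for Gstm2. For Mgst1 it was 0.71 and 0.75, and for Sult2a1 0.56 and 0.56. These values by label, from 8 and 6 libraries, were not tested. Since Afp is in the sum and also set the classes, the sum was recomputed from the other 14 markers, an alternative chosen after the data were seen. It gave r 0.92 for Ugt1a1, 0.68 for Mgst1, 0.72 for Gsta3_69531 and 0.56 for Sult2a1 (permutation test, adjusted p = 0.0002, 0.0332, 0.0311 and 0.0905), and 0.06 for Ugt2b35. Some of these libraries share a litter number, so they may not be fully independent. Whether hepatocyte RNA takes part in the levels of Ugt1a1, Mgst1 or Sult2a1 was not tested.

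**Figure D3:**
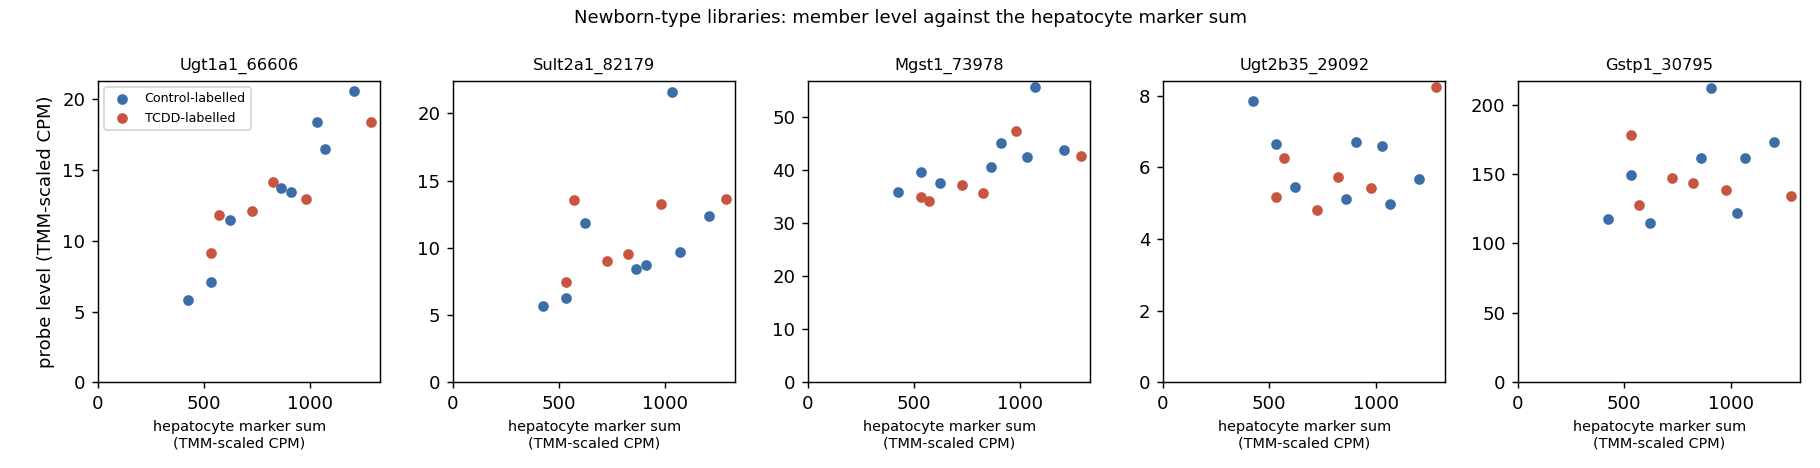
Level of Ugt1a1, Sult2a1, Mgst1, Ugt2b35 and Gstp1 (y axes, TMM-scaled CPM) against the summed level of 15 hepatocyte marker genes (x axes) in the 14 newborn-type libraries, coloured by treatment label. Ugt1a1 follows the marker sum (r 0.93), Mgst1 (r 0.69) and Sult2a1 (r 0.53) less closely, and Gstp1 (r 0.22) and Ugt2b35 (r 0.05) least.

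Genes linked to the same cofactors and conjugates were counted from fixed lists, to be read beside the shares of all probes, 14% newborn higher and 8.62% adult higher. With so few genes in a list, a count of 1 or 2 is near those shares. In glutathione synthesis and turnover 5 of 13 measured genes were higher in the adult type on TMM-scaled CPM and 0 in the newborn type. They were Ggt1 (log2 ratio -2.33), which cleaves extracellular glutathione, Cbs (-2.11) and Cth (-1.64) of cysteine synthesis, the cystine transporter gene Slc7a11 (-1.98) and Lap3 (-1.26). On library totals Ggt1, Cbs and Slc7a11 stayed below 0, at -0.38, -0.16 and -0.19, and Cth and Lap3 turned positive, at 0.26 and 0.66. Gclc and Gclm, the subunits of the rate-limiting ligase, overlapped at -0.28 and -0.55 (1.52 and 1.25 on library totals). Of 13 genes listed as other glutathione-using enzymes or their relatives, 5 were newborn higher. They were Gpx7 (2.83) and Gpx8 (2.72), peroxidases of the endoplasmic reticulum, Hpgds (2.73), Glrx (1.18) and Alox5ap (2.56), a relative that does not itself use glutathione. Hagh was adult higher (-1.11, and 0.66 on library totals).

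For glucuronidation, Ugdh, which makes UDP-glucuronate, was newborn higher at 22.5 to 34.0 against 7.21 to 13 TMM-scaled CPM (log2 ratio 1.54), as was Ugp2 (0.46). Pgm1 was adult higher (-0.82, and above 0 on library totals), and the other 5 of the 8 genes overlapped. For sulfonation, the PAPS synthase gene Papss1 (0.95) and Tpst1 (1.63) were newborn higher among 11 genes, near the 14% of all probes. Bpnt1, which removes the spent donor, was adult higher (-0.72, and 1.10 on library totals). In the list drawn up for conjugate export, which also holds Slco uptake carriers, 4 of 7 genes were newborn higher, beside 14% of all probes. They were the exporter genes Abcc2 (4.06), whose product carries bilirubin glucuronide into bile, Abcg2 (2.75) and Abcc5 (2.05), and the carrier gene Slco2a1 (2.08).

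Of 15 measured regulators and target genes 2 were newborn higher and 2 adult higher, near the shares of all probes (14% and 8.62%). The first were the nuclear receptor genes Nr1i3 (CAR) and Nr1i2 (PXR). Nr1i3 had 0.666 to 2.82 TMM-scaled CPM and was at 0 in all 8 adult-type libraries, where 3 counts would be 0.299 to 0.459, and Nr1i2 had 0.584 to 2.30 against 0 to 0.262. Mafk (-1.23) and Rxra (-0.79) were adult higher, and both are above 0 on library totals (0.60 and 1.12). The receptor gene Ahr, its target Tiparp, Nfe2l2 (NRF2) and its target Nqo1 overlapped. Cyp1a1, the best known target of the dioxin receptor, reached at most 0.363 TMM-scaled CPM in the newborn type and 2.49 in the adult type.

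No member passed the test for treatment label within either class. In the newborn type (8 Control, 6 TCDD) 54 member probes were tested and 0 passed an adjusted p of 0.05 in edgeR's quasi-likelihood test, as for all 17109 probes (0%). At an unadjusted p under 0.05 there were 0 members, beside 3.24% of all probes, and DESeq2 gave 0 adjusted calls. The members' log2 fold changes, TCDD over Control, ranged from -0.91 to 0.68 with a median of -0.11, beside -0.0013 for all probes, and 38 of 54 were below 0. The smallest p was that of Gstk1, with 8.72 to 13.8 TMM-scaled CPM (median 11.3) in Control and 8.49 to 11 (median 9.43) in TCDD libraries. Its log2 fold change was -0.23 ± 0.115 (SE; edgeR adjusted p = 1). Next were Ugt1a5 (0.68 ± 0.344), Sult1b1_29295 (-0.91 ± 0.464) and Gstm7_66058 (-0.51 ± 0.267), all with adjusted p = 1 in edgeR. The 95% interval was -0.35 to 0.07 for Mgst1, -0.30 to 0.12 for Gstp1_64006 and -0.36 to 0.29 for Sult1a1. It was wider for Ugt1a1_66606, -0.48 to 0.39, and for Sult2a1_82179, -0.41 to 0.51.

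Adult-type libraries gave 31 members tested and 0 passing in edgeR, as for all 13513 probes (0%), with DESeq2 also at 0. At an unadjusted p under 0.05 there were 0 members, beside 2.87% of all probes. Only 2 libraries were Control-labelled, both labelled dam, while 4 of the 6 TCDD-labelled ones were labelled pup. Of the 31 log2 fold changes 25 were above 0, with a median of 0.21 beside 0.02 for all probes. This direction rested on Control dam 7: without it 17 of 37 tested members were above 0 and 20 below, with a median of -0.03, and without Control dam 5 the median was 0.40. Gstt3_64109 had the smallest p, at 12.6 in both Control libraries and 13.3 to 19.7 in TCDD-labelled ones, a log2 fold change of 0.40 ± 0.217 (edgeR adjusted p = 1). Gstm2 gave 0.25 ± 0.166, Gstm4 0.63 ± 0.462 and Gstt3_31186 -0.41 ± 0.308 (edgeR adjusted p = 1 for each). These 2 Gstt3 probes thus pointed in opposite directions. Counts summed over all Gstt3 probes, the low Gstt3_71846 included, gave 0.15. Mgst1 had an interval of -0.78 to 0.86, wider than in the newborn type. TCDD dam 8 had the highest Mgst1, 27.5, and Gsta3, 40.8, of the adult type and also the highest adipocyte marker sum, 180.5 TMM-scaled CPM, whose part in these levels was not tested.

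**Figure D4:**
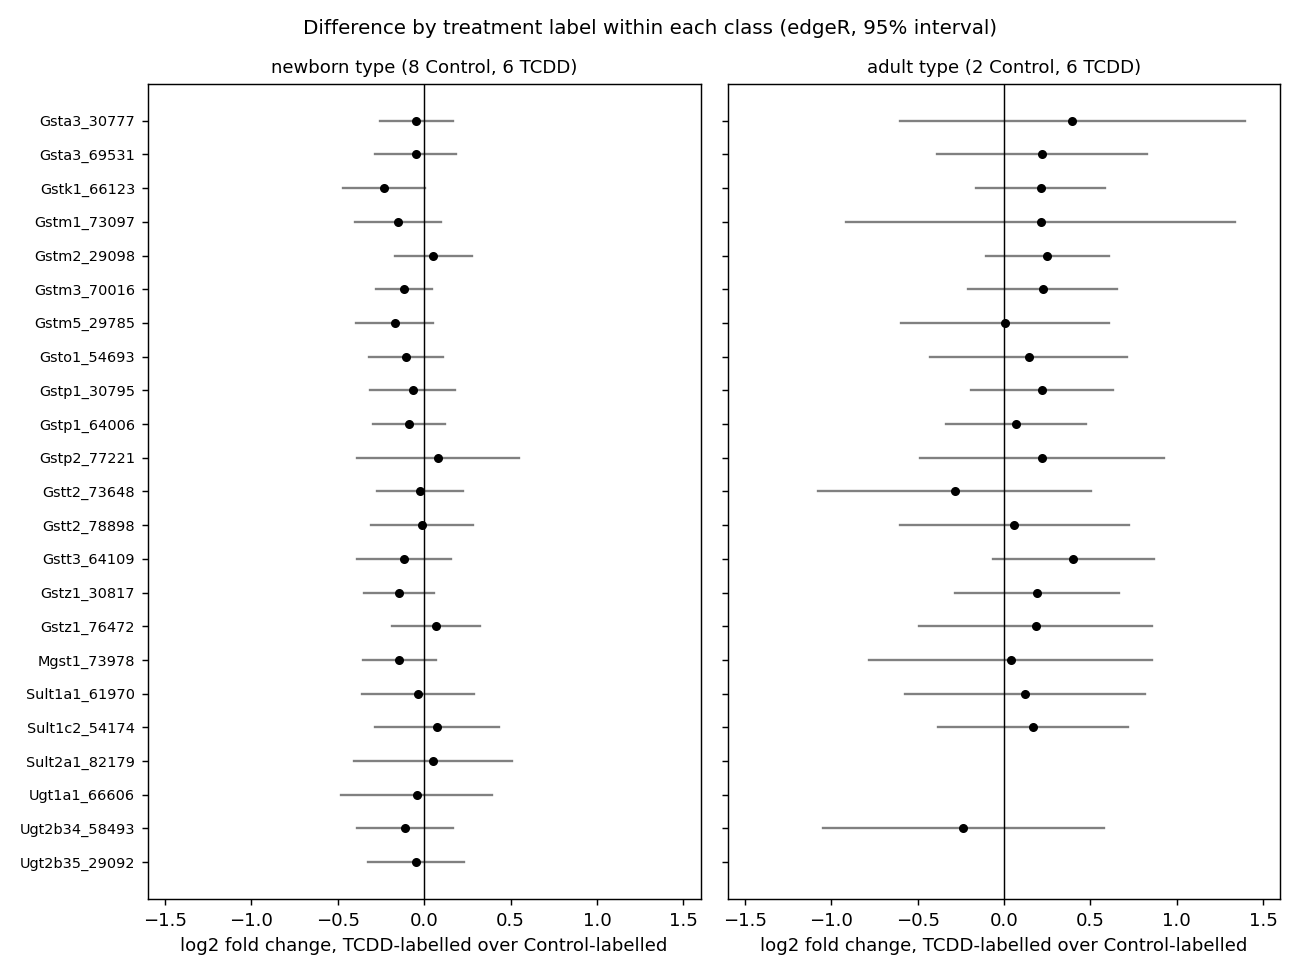
Log2 fold change of TCDD-labelled over Control-labelled libraries with its 95% interval from edgeR for 23 member probes with a class median of at least 5 TMM-scaled CPM, in the newborn type (left) and adult type (right); 3 probes were not tested in the adult type. Every interval spans 0, and those of the adult type, with 2 Control libraries, are mostly wider.

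Whether the difference by label itself differed between the classes was tested as an interaction over 19209 probes. In edgeR 0 passed (0%), and 0 of 58 members. At an unadjusted p under 0.05 there were 6 members, beside 7.93% of all probes. They were Ugt8a, Ugt1a7c_72165, Sult2a1_82179, Sult1b1_59449, Gstt3_64109 and Gstk1. For Gstk1 the difference in the newborn type minus that in the adult type was -0.45 ± 0.204 and for Gstt3_64109 -0.53 ± 0.238 (edgeR adjusted p = 0.590 and 0.582). Ugt8a, Ugt1a7c_72165, Sult1b1_59449 and Sult2a1 rest on adult-type groups near or at 0 counts, so their fitted values are not given.

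The groups as labelled mix the classes. For dams (2 libraries of each class on both sides) 0 of 45 members passed in edgeR, as for all 15594 probes (0%), with 0 members at an unadjusted p under 0.05 beside 0.962% of all. For female pups, where TCDD female pup 6 alone is adult type, 0 of 55 members and 0 of 17513 probes (0%) passed, and 1 member had an unadjusted p under 0.05 beside 1.71% of all probes, Sult1a1 at -0.48 ± 0.207 (edgeR adjusted p = 0.996). In male pups, where all 3 Control libraries are newborn type and 3 of 4 TCDD libraries adult type, 0 of 44 members and 0 of 16176 probes (0%) passed in edgeR, but 10 members had an unadjusted p under 0.05 beside 16.7% of all probes. Among them were Gstm2 (1.56 ± 0.377), Gstk1 (1.48 ± 0.442), Gstt3_64109 (1.48 ± 0.459) and Gstp1_64006 (1.36 ± 0.444), each with an edgeR adjusted p of 0.273, all members that were higher in adult-type libraries on this scale and not on library totals. DESeq2 called 2 of the 44 members and 505 of the 16176 probes. Without TCDD male pup 6, edgeR called 24 of 43 members and 6451 of all 15379 probes tested. The label then coincides with the class, so that the 2 cannot be told apart.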

How the data were processed

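RNA of whole pancreas went through a TempO-Seq panel for the mouse transcriptome and was sequenced on a NextSeq500 (labels' protocols). The submitters' processing notes name bcl2fastq 2.17.1.14. Which aligner and build were used is not given in the sources used here, nor are probe sequences. The authors deposited 1 table of raw probe counts for 22 libraries, used as whole-number counts with no normalization. No molecular identifiers are described, so intervals and floors (3 counts) cover counting error only.

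Tests used R 4.3.3 and edgeR 4.0.16 on the whole table (filterByExpr, TMM, glmQLFit, glmQLFTest, Benjamini-Hochberg, threshold 0.05), within each class, as labelled, and for the interaction. The functions were tested on simulated data. Alternatives used DESeq2 1.42.0, limma 3.58.1, other scalings, no filter, summed probes and left-out libraries. Named probes were the top probe of each family, the 8 largest and 8 smallest class ratios among probes with a class median of at least 5, and the 4 smallest p of each within-class fit; other probes are named where a count or family is itemised. The members and gene lists were chosen with earlier results of these data known. Replicates are separate animals by their labels, which the stage genes contradict in 8 libraries, so p-values measure the spread between these libraries. By the labels a number marks a litter, shared by a dam and pups. Same-numbered libraries had a median correlation of deviations of -0.087 over 9 pairs in the newborn type and -0.220 over 2 pairs in the adult type, beside -0.176 and -0.223 for different numbers.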

Additional observations from a re-analysis of the deposited data

Results flagged for a closer look

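In 12 of 72 groups of 6 or 8 libraries (24 named probes, by class and treatment label) 1 library lay far from the others by Dixon's test, where chance gives about 1 in 20. All values are TMM-scaled CPM, and no explanation was tested.

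In the newborn type, TCDD male pup 6 had the highest Gsta3_69531, 57.0 with the next at 39.3, and Gstz1_30817, 19.7 with the next at 16.2. This library also had the highest hepatocyte marker sum, 1286. Control female pup 2 had Mgst1 at 55.7 with the next at 45.1, Control dam 4 had Sult2a1 at 21.6 with the next at 12.4, and Control male pup 7 had Gstp1_64006 at 18.5 with the next at 15.4. TCDD dam 10 had Gstt3_64109 at 5.92 with the next at 4.45, and TCDD female pup 8 had Sult1c2 at 4.56 with the next at 3.63.

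In the adult type, TCDD dam 8 had Mgst1 at 27.5 with the next at 13.6, and TCDD male pup 8 had Ugt2b35 at 2.49 with the next at 0.893. The other 3 rest on at most 3 counts in a group otherwise at 0: Sult3a1 in TCDD dam 11 (0.424), Sult4a1 in TCDD male pup 11 (0.144) and Ugt3a2 in TCDD male pup 8 (0.131).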

How the results depend on the processing

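Of 1122 recomputed values for 67 results, 1069 were labelled the same. Fold changes and relations had to keep direction and side of the threshold, and class ratios to move by less than the replicate spread. Counts of probes had to be equal or within a fixed ratio. On CPM of the library total the members without overlap numbered 30 newborn higher and 0 adult higher, with a median log2 ratio of 2.31, and the ratios of Gstk1 (0.072), Gstm2 (0.29), Gstp1_30795 (0.23), Gstp1_64006 (0.16), Gstp2 (0.25) and Gstt3_64109 (0.17) changed sign, since the median of all probes moves to 1.93. The Pearson relation of Gsta3_30777 to the hepatocyte markers passed once Afp was left out (r 0.63 to 0.69), while its Spearman relation passed with and without Afp. With only libraries whose stage label goes with the class, 11 of 43 members (25.6%) were newborn higher, beside 18.9% of all 15107 probes. Leaving out each library gave 7 to 11 newborn-higher members, 9 to 9 adult-higher members and medians of 0.17 to 0.54. The shares of all probes were then 14.2% to 15.2% newborn higher and 8.71% to 10.1% adult higher. The highest count was 11 of 42 members (26.2%) without TCDD dam 8, beside 15% of all probes. No fit within a class called a member under any alternative. Over the whole table, no low-count filter gave 112 calls in the adult type and 9 in the interaction, where DESeq2 gave 23; the cause was not tested. Leaving out a library gave 0 to 2 calls in the adult type (2 without Control dam 5) and 0 to 46 in the interaction: 46 without Control dam 5, 19 without TCDD dam 8, 4 without Control male pup 4, 3 without Control dam 7 and 1 each without TCDD dam 6 and TCDD male pup 11. For male pups as labelled, DESeq2 called 505 of 16176 probes and 2 of 44 members. Leaving out a library gave 0 to 6451 probes and 0 to 24 members, the highest without TCDD male pup 6, where 15379 probes and 43 members were tested. Counts summed per symbol turned Gstt3_31186 in the adult type to 0.15.

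With the litter number as a replicate block in limma-voom, 0 probes were called in either class or in the interaction, as without it. Control and TCDD groups share no litter number, so the block ties libraries within a treatment. Depth limits adult-type values of Ugt1a1, Ugt2b35 and Sult2a1, where 3 counts are 0.299 to 0.459 TMM-scaled CPM.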
